A study of Mus musculus with 4 samples.

Results

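This account follows 54 genes of DNA replication and S phase through bulge stem cells of the mouse hair follicle taken after CSA or vehicle. The genes form a list of replication proteins, and a gene was counted where the platform's annotation gave a table row to it alone. All 54 of 54 had such a row, out of 19935 genes that could be named. They fall into 6 classes, with 13 genes of origin licensing, 7 of origin firing, 18 of polymerases and the replication fork, 5 of nucleotide synthesis, 4 of chromatin assembly and 7 of the E2F and cyclin E switch.

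Male CD-1 mice at postnatal day 56 received 100 mg/kg CSA or its vehicle into the peritoneum over 3 days, and skin was collected while the follicles rested, in their second telogen. CSA is not expanded in the labels. The abbreviation commonly stands for cyclosporine A, which inhibits the phosphatase calcineurin, and the series title names calcineurin, Nfatc1 and stem cell quiescence. Cells carrying alpha6 integrin and CD34 were sorted, and their RNA was read on 4 one-colour arrays, 2 for CSA and 2 for vehicle. Both groups were the same strain, sex and age, and the labels name no mutant allele. The series text calls the replicates biological but the number of mice behind a sample is not stated, so p-values measure the spread between these samples.

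A cell prepares to copy its genome by loading the Mcm2 to Mcm7 helicase at origins, a step called licensing that needs the origin recognition complex, Cdc6 and Cdt1. Kinases and further factors then fire the origins, and polymerases copy the strands behind a sliding clamp. Nucleotide enzymes and histone chaperones supply the fork. Many of these genes are switched on together by E2F transcription factors, which are held back by the retinoblastoma family in resting cells. Bulge stem cells in telogen are known for being largely quiescent.

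Each deposited value reads, from its spread around 0, as a distance from a baseline of its row that no source used here names, on a log scale taken as log2. A value therefore compares arrays for 1 gene and never the abundance of different genes. The median of the 4 arrays was 0 in 11.38% of rows and their mean in 0.08%. For most rows the baseline is thus neither of these. The medians of all genes were 0.01 and -0.02 after CSA and 0.07 and -0.02 after vehicle. The standard deviation over rows was 0.41 and 0.37 after CSA and 0.47 and 0.37 after vehicle, replicate 1 first. Over all genes the values correlated with r = 0.055 between the CSA arrays and r = 0.172 between the vehicle arrays. Between a CSA and a vehicle array r ran from 0.015 to 0.545, the highest for those numbered replicate 2. The arrays thus did not group by treatment. Cd34, a marker of the sort, was at 1.75 and 3.60 after CSA and at 4.05 and 4.25 after vehicle. The other sort marker, Itga6, was at -0.70 and -0.53 after CSA and at -0.9995 and 0.08 after vehicle. Presence or absence of a marker cannot be read from values of this kind. In bulk RNA, fewer cells of a type and less RNA per cell cannot be told apart.

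Between CSA and vehicle the replication genes did not move as a block. Geminin (Gmnn), Rpa1, Chaf1b, Orc2 and the ribonucleotide reductase genes had higher means in CSA, and thymidine kinase (Tk1), Lig1, Pola1 and Uhrf1 had lower ones. Of the 54 genes 23 had a higher and 31 a lower mean in CSA, and 41.1% of all genes had a higher one. The median difference, CSA minus vehicle throughout, was -0.05 on the log2 scale over these genes and -0.04 over all genes. Differences ran from -0.87 for Tk1 to 1.14 for Gmnn.

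None of these differences passed the test. limma called 0 of the 54 genes and 0 of all 19935 (0.0%) at an adjusted p under 0.05, and the smallest adjusted p among the 54 was 0.999. Without adjustment 4 of the 54 had a limma p under 0.05 (Rpa1, Gmnn and Chaf1b higher, Tk1 lower), against 2.83% of all genes (1.83% higher and 1.0% lower), and 3 had one in a test without moderation. The groups stood at least 1.5-fold apart without overlap for 4 genes (7.41%), namely Gmnn, Orc2 and Rpa1, which were higher, and Tk1, which was lower. The same held for 5.9% of all genes (3.91% higher and 1.99% lower), so that the 4 genes are close to the share seen in the whole table. For 18 of the 54 genes (33.3%) no CSA array lay within the range of the vehicle arrays or the reverse, 8 higher and 10 lower, against 26.3% of all genes (10.9% higher and 15.4% lower).

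**Figure D1:**
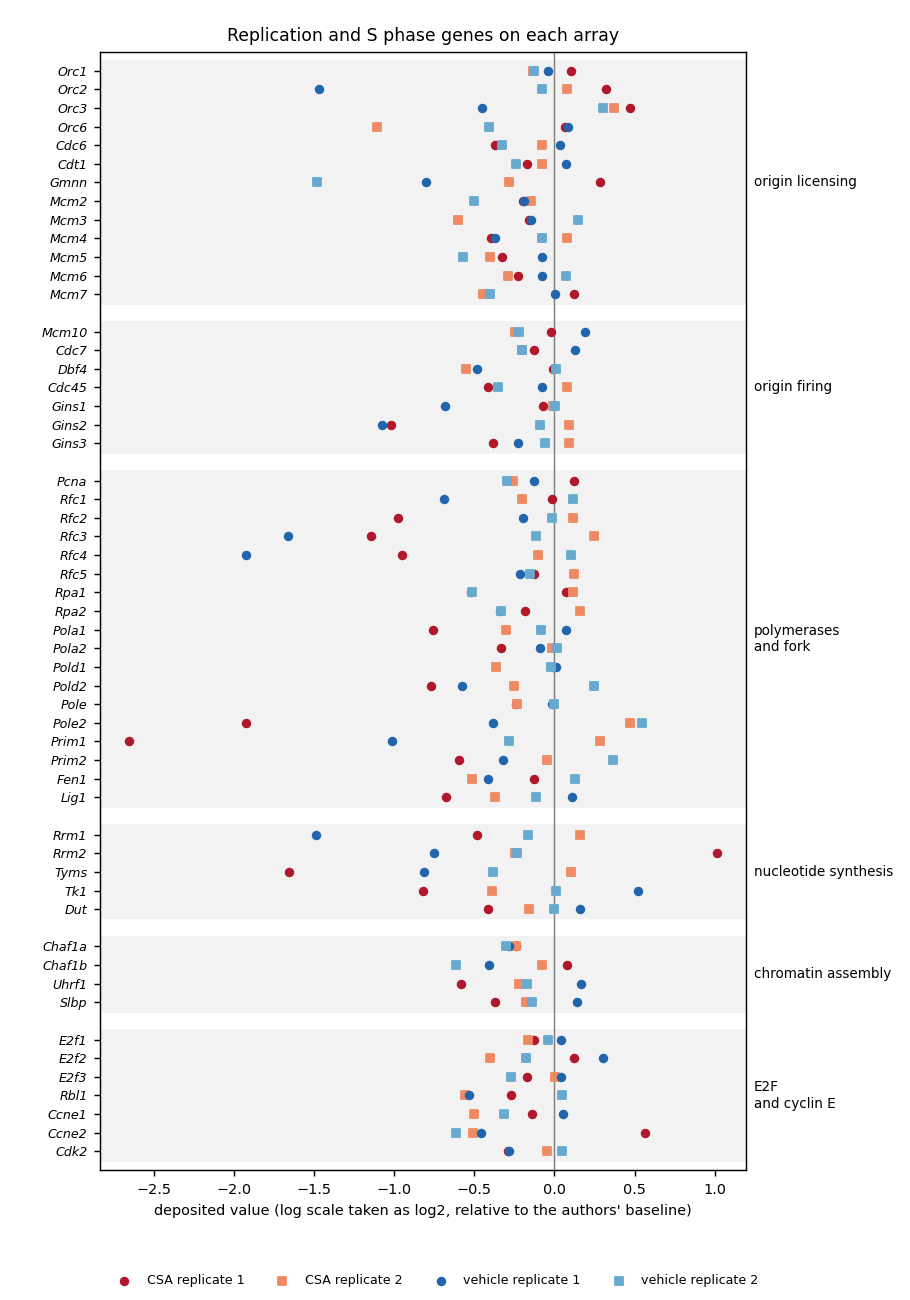
Values of the 54 replication and S phase genes on each of the 4 arrays, by class (horizontal axis, log scale taken as log2, 0 is the authors' baseline). Circles are arrays numbered replicate 1 and squares those numbered replicate 2, red for CSA and blue for vehicle. The far values lie to the left and are mostly circles.

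The replication genes lay below the baseline more than genes in general. What that baseline was taken from is not known, so a value below 0 is not read as low expression in bulge cells. The mean over the 4 arrays was below 0 for 53 of the 54 (98.1%) and for 44.5% of all genes. Orc3, with a mean of 0.18, was the exception. Few of them were low throughout, since all 4 arrays were below 0 for 4 of the 54 (7.41%), against 3.35% of all genes. Instead their lowest array lay far down, with a median over genes of -0.52 for the lowest array and 0.11 for the highest, where all genes had -0.19 and 0.24.

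These far values sat on particular arrays. CSA replicate 1 stood at least 1.5-fold below the baseline for 12 of the 54 genes (22.2%, against 6.9% of all genes) and vehicle replicate 1 for 11 (20.4%, against 9.77%). CSA replicate 2 did so for 2 genes (3.7%, against 2.45%) and vehicle replicate 2 for 3 (5.56%, against 2.57%). Both arrays numbered replicate 1 were that low for 5 genes, Gins2, Rfc3, Rfc4, Prim1 and Tyms, and both numbered replicate 2 for 0. This joint count was not made for all genes, whose single-array shares were also higher on the arrays numbered replicate 1. At least 1.5-fold above the baseline on any array stood 1 gene, Rrm2 on CSA replicate 1. The labels do not say whether the replicate number marks a batch, and its part in these values was not tested.

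**Figure D2:**
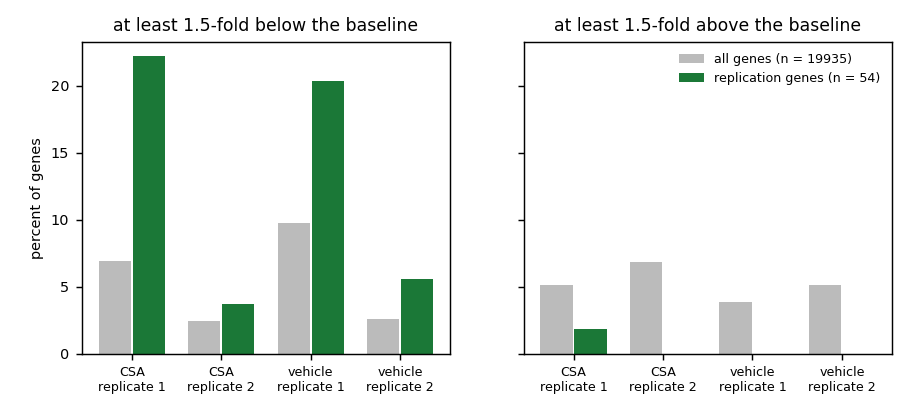
Percent of genes at least 1.5-fold below (left) or above (right) the baseline on each array, for the 54 replication genes (green) and all 19935 genes (grey). The green bars reach 22.2% and 20.4% below the baseline on the arrays numbered replicate 1, and on the right the only green bar is 1.85% on CSA replicate 1.

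A low mean was not found for this list alone. Of 99 measured genes on 6 further lists of the same pathways 82 had a mean below 0 (82.8%), and of 23 genes of the G2 and M phases 22 had (95.7%). Of 12 bulge markers 2 had (16.7%). The G2 and M phase genes were low in another way, with all 4 arrays below 0 for 9 of the 23 (39.1%). At least 1.5-fold below the baseline stood 9 of them on CSA replicate 2 and 4 on CSA replicate 1. On vehicle replicate 2 there were 3 and on vehicle replicate 1 there was 1. The 99 pathway genes also shared the arrays of the far values. At least 1.5-fold below the baseline stood 22.2% of them on CSA replicate 1 and 26.3% on vehicle replicate 1. On each array numbered replicate 2 it was 6.06%. No test was made of these shares.

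Leaving out 1 array often changed the direction of a difference. For 18 genes the groups did not overlap, and these keep their direction whichever array is left out by the way they were chosen. Of the other 36 genes 30 turned when some array was left out, and Mcm2, Rrm1, Rrm2, Ccne2, Pold1 and Ccne1 did not. Quantile normalization or centring the arrays on their medians turned 4 of the 54, Cdc6, Cdt1, Mcm5 and Gins3, whose differences lay between -0.08 and -0.002 as deposited.

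**Figure D3:**
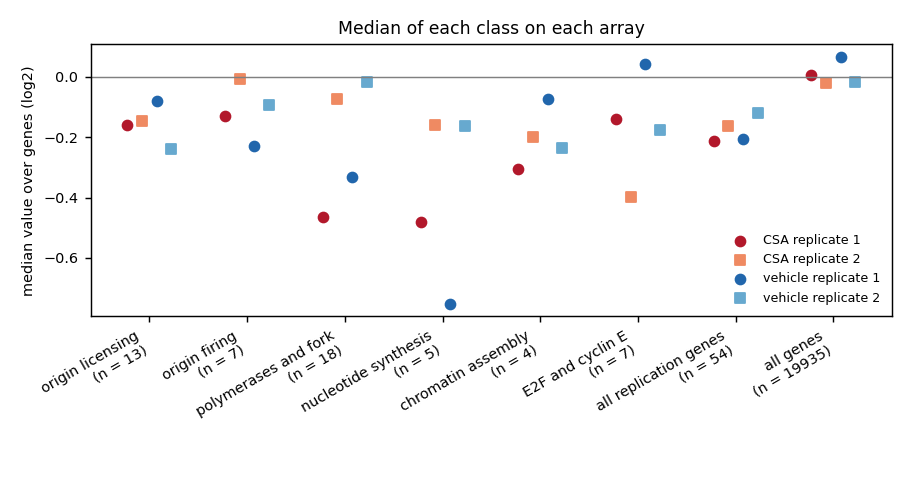
Median value over the genes of each class on each array (vertical axis, log2), with all 54 replication genes and all genes at the right. In the polymerase and fork class and in nucleotide synthesis the arrays numbered replicate 1 (circles) are the lower ones in both groups, and the median of all genes lies within 0.07 of the baseline on each array.

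Promoters of these genes were read because E2F sites are a textbook feature of them. The E2F-type motif was searched on both strands as TTTCCCGC, TTTCGCGC, TTTGCCGC or TTTGGCGC in the 250 bases before the annotated start, from RefSeq on build GRCm38.p6. Promoters were found for 46 of the 54 genes, and 8 had no entry (Gmnn, Mcm4, Gins1, Gins2, Rfc2, Pole, Prim2 and Ccne2). Where a gene had several starts, the most upstream was taken. A match stood in 12 of the 46 (26.1%), against 1.92% of 27025 promoters in the table and 2.57% of the 15612 whose genes were measured here. The CCAAT motif, which binds NF-Y, stood in 26 of the 46 (56.5%), against 34.5% of all promoters and 35.6% of those of measured genes. The CHR element, searched as TTTGAA, stood in 5 (10.9%), against 16.3% of all promoters and 13.8% of those of measured genes.

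By class the E2F-type match was found in 6 of 11 licensing promoters, Orc1, Orc3, Cdc6, Mcm5, Mcm6 and Mcm7. It was found in 3 of 6 of the E2F and cyclin E class (E2f3, Rbl1 and Cdk2), in 2 of 15 of the fork class (Rfc3 and Pola1) and in 1 of 5 of origin firing (Gins3). None was found among 5 promoters of nucleotide synthesis and 4 of chromatin assembly, which says only that these letters are not in that window. The share with an E2F-type match was similar in both directions. The match stood in 5 of 18 promoters of genes with a higher mean in CSA (27.8%) and in 7 of 28 with a lower one (25%). The CCAAT motif stood in 13 of the 18 (72.2%) and in 13 of the 28 (46.4%). For the CHR element the counts were 3 (16.7%) and 2 (7.14%). Whether these shares differ by direction was not tested, and many of the directions turned when some array was left out, as given above.

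The 160 bases before the start are shown for the 3 genes that had a match and whose groups did not overlap, Orc3 with a higher mean in CSA and Mcm6 and Pola1 with lower ones. Rpa1 and Tk1, with the largest moderated statistic in either direction among genes with a promoter, follow and have no E2F-type match. Capitals mark E2F-type and CCAAT matches on either strand. In Mcm6 a pair of E2F-type matches on opposite strands overlap and are printed as 1 run, and a further one lies nearer the start.
Orc3, chr4:34614943-34615102, minus strand: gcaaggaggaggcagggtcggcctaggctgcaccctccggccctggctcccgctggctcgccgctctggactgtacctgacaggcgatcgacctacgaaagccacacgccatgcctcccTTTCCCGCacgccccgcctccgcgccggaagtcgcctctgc
Mcm6, chr1:128359706-128359865, minus strand: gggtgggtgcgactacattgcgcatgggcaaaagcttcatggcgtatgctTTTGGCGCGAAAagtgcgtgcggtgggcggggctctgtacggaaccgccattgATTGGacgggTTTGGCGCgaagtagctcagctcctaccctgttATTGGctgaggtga
Pola1, chrX:93632156-93632315, minus strand: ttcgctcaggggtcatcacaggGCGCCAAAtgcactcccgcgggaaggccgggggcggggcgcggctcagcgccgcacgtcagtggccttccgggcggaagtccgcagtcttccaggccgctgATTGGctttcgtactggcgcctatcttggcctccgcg
Rpa1, chr11:75348384-75348543, minus strand: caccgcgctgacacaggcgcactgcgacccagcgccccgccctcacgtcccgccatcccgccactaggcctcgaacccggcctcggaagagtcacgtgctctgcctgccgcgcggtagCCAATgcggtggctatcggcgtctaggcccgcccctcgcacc
Tk1, chr11:117826015-117826174, minus strand: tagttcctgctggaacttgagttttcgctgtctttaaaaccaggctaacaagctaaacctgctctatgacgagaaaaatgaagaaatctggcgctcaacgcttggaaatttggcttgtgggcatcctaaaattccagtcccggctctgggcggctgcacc

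Origin licensing showed its widest differences in an inhibitor and in the origin recognition complex. Geminin, which binds Cdt1 and blocks relicensing, was at 0.28 and -0.28 after CSA and at -0.80 and -1.48 after vehicle. Both CSA arrays were above both vehicle arrays, and the difference of 1.14 ± 0.34 (limma's moderated standard error, 2 arrays a group, as after every ±) lay between 0.80 and 1.48 with any array left out. Its partner Cdt1 was at -0.17 and -0.08 after CSA and at 0.07 and -0.24 after vehicle. The groups overlapped and the difference was -0.04 ± 0.19, or 0.06 after quantile normalization.

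Orc2, a core subunit of the origin recognition complex, was at 0.32 and 0.08 after CSA and at -1.47 and -0.08 after vehicle. The low vehicle value belonged to replicate 1, and the difference of 0.98 ± 0.51 was 0.28 without that array. Orc3, also a core subunit, was at 0.47 and 0.37 after CSA and at -0.45 and 0.31 after vehicle, a difference of 0.50 ± 0.31 that was 0.12 without vehicle replicate 1. Orc1, which binds ATP in the complex, differed by 0.07 ± 0.18. Orc6 differed by -0.36 ± 0.47, and by 0.23 without CSA replicate 2, where it was at -1.11.

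The helicase subunits went both ways, 3 higher and 3 lower, with 4 higher after quantile normalization. Mcm2 was at -0.20 and -0.15 after CSA and at -0.19 and -0.50 after vehicle, and the groups overlapped (0.18 ± 0.19). Mcm3 was at -0.16 and -0.60 after CSA and at -0.15 and 0.15 after vehicle. Both CSA arrays were lower, though by little on the arrays numbered replicate 1, and the difference was -0.38 ± 0.24. Mcm6 differed by -0.26 ± 0.16 without overlap, and Mcm4, Mcm5 and Mcm7 lay between -0.04 and 0.07. Cdc6, the loading ATPase, was at -0.37 and -0.07 after CSA and at 0.03 and -0.33 after vehicle, a difference of -0.08 ± 0.22, or 0.07 after quantile normalization. Over the class 7 genes had a higher and 6 a lower mean in CSA, with 10 higher after quantile normalization. The median difference was 0.04.

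In origin firing the groups overlapped for all 7 genes. Of all genes 26.3% were without overlap, and with 7 genes the count says little about the class. Gins1, of the GINS complex that joins the helicase, was at -0.07 and -0.01 after CSA and at -0.68 and 0.01 after vehicle. The difference of 0.30 ± 0.29 was -0.04 without vehicle replicate 1. Gins2 was low on both arrays numbered replicate 1, at -1.02 in CSA and -1.07 in vehicle, and near the baseline on the others, at 0.09 and -0.09, so that the groups differed by 0.12 ± 0.54. Gins3 differed by -0.002 ± 0.23.

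Cdc45, the other helicase partner, was at -0.41 and 0.08 after CSA and at -0.08 and -0.35 after vehicle (0.04 ± 0.25). Cdc7, the kinase that fires origins, was at -0.13 and -0.20 after CSA and at 0.13 and -0.20 after vehicle. Its difference was -0.13 ± 0.19, and that of its activator Dbf4 -0.04 ± 0.30. Mcm10, which helps to start unwinding, was at -0.02 and -0.24 after CSA and at 0.19 and -0.22 after vehicle, with a difference of -0.12 ± 0.22. The differences of Mcm10 and Cdc7 were 0.09 and 0.04 without vehicle replicate 1.

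**Figure D4:**
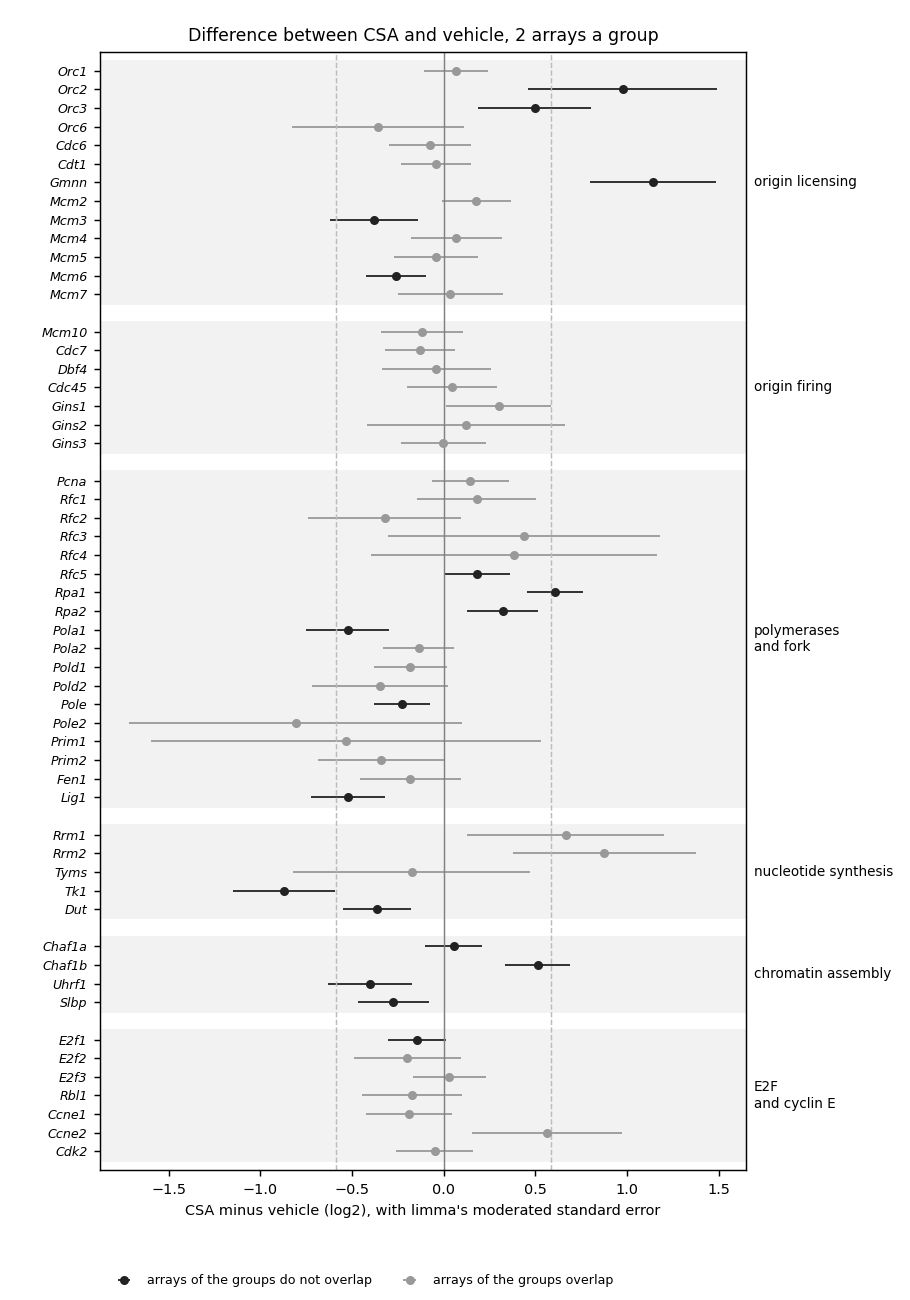
Difference between CSA and vehicle for each gene (horizontal axis, log2) with limma's moderated standard error, 2 arrays a group. Black marks genes whose arrays do not overlap between groups, and dashed lines mark a 1.5-fold difference. Gmnn, Orc2, Rpa1 and Tk1 are black and past a dashed line, and limma called 0 of the 54 genes.

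At the fork, genes for polymerase and primase subunits had lower means in CSA while most clamp, clamp loader and RPA genes had higher ones. This grouping was made after the values had been seen. All 8 polymerase and primase genes were lower, with a median of -0.35, and so were the flap nuclease gene Fen1 and Lig1. Of the 8 genes for the clamp, its loader and RPA 7 were higher, with a median of 0.25. Without vehicle replicate 1, 4 of these 8 were higher and the median was -0.0365, and without CSA replicate 2, 5 were higher and the median was 0.10. Quantile normalization and centring the arrays turned none of these genes. For all 18 fork genes together the median difference was -0.18.

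Pola1, the catalytic subunit of the polymerase that makes primers with primase, was at -0.76 and -0.30 after CSA and at 0.07 and -0.09 after vehicle. Both CSA arrays were lower, and the difference was -0.52 ± 0.23, or -0.30 without CSA replicate 1. Lig1, the ligase that joins Okazaki fragments, was at -0.67 and -0.37 after CSA and at 0.11 and -0.11 after vehicle. It too was lower on both CSA arrays, by -0.52 ± 0.20. Pole, the catalytic subunit of the leading strand polymerase, was at -0.24 on both CSA arrays and at -0.02 and -0.0004 on the vehicle arrays (-0.23 ± 0.15).

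The other polymerase genes overlapped between the groups. Prim1, the catalytic primase subunit, was at -2.65 and 0.28 after CSA and at -1.01 and -0.28 after vehicle. The difference of -0.53 ± 1.06 turned to 0.93 without CSA replicate 1, where it had the lowest value of all 54 genes on any array. Pole2 was at -1.92 and 0.47 after CSA and at -0.38 and 0.54 after vehicle. The difference, -0.81 ± 0.91 with all arrays, was 0.39 when CSA replicate 1 was left out. Pola2, Pold1, Pold2 and Prim2 differed by between -0.35 and -0.14. Without CSA replicate 1, 3 of the 8 polymerase and primase genes were higher in CSA. Without vehicle replicate 2, 2 were, and without either other array 0 were.

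Rpa1, the large subunit of the protein that coats single strands, had the largest moderated statistic of the 54 genes. It was at 0.07 and 0.11 after CSA and at -0.52 and -0.51 after vehicle, so that the arrays of each group lay close together. The difference of 0.61 ± 0.15 was between 0.59 and 0.63 with any array left out. Rpa2 was at -0.18 and 0.16 after CSA and at -0.34 and -0.33 after vehicle (0.32 ± 0.19). Rpa3, the small subunit and not one of the 54, was at -0.63 and -0.04 after CSA and at 0.04 and -0.16 after vehicle (-0.28 ± 0.27). Its groups overlapped, and a second row naming Rpa3 differed by 0.17.

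Pcna, the clamp, was at 0.12 and -0.26 after CSA and at -0.12 and -0.30 after vehicle. The groups overlapped, the difference was 0.14 ± 0.21, and a second row that names Pcna gave 0.16. Among the genes of the clamp loader, Rfc4 was at -0.95 and -0.10 after CSA and at -1.92 and 0.10 after vehicle, and Rfc3 at -1.15 and 0.24 after CSA and at -1.66 and -0.11 after vehicle. Both were low on the arrays numbered replicate 1 in either group. Their differences of 0.38 ± 0.78 and 0.44 ± 0.74 turned to -0.63 and -0.34 without vehicle replicate 1, and without that array 1 of the 5 loader genes was higher in CSA in place of 4. Rfc5, the loader gene without overlap, differed by 0.18 ± 0.18.

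Accessory subunits of the same polymerases, taken from a wider list, did not share the direction of the core subunits. Pold3, of the lagging strand polymerase, was at 1.08 and 0.49 after CSA and at -1.52 and 0.02 after vehicle. The difference was 1.53 ± 0.60, and 0.76 without vehicle replicate 1. Pole4, a histone-fold subunit of the leading strand polymerase, was at 0.43 and 1.15 after CSA and at -0.13 and 0.23 after vehicle (0.74 ± 0.32). Pold4 and Pole3 differed by 0.49 ± 0.22 and 0.55 ± 0.30. Without CSA replicate 2 Pole4 differed by 0.38 and Pold4 by 0.29, and without vehicle replicate 1 Pole3 differed by 0.19. For all 4 genes both CSA arrays were above both vehicle arrays, as they were for 10.9% of all genes. They were singled out after their values had been seen, and limma called 0 of the 4.

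**Figure D5:**
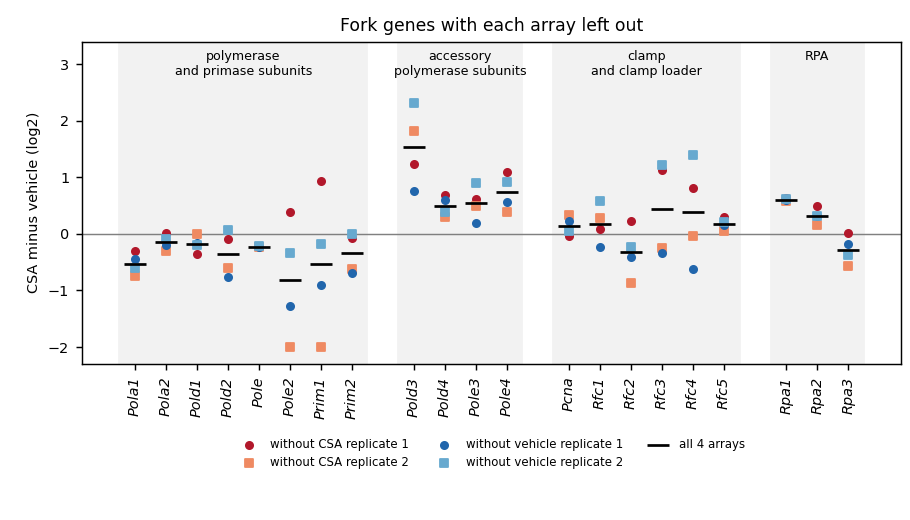
Difference between CSA and vehicle (vertical axis, log2) for fork genes with all 4 arrays (black bars) and with each array left out in turn (coloured marks, named for the array left out). Rpa1 stays between 0.59 and 0.63, while Prim1, Pole2, Rfc3 and Rfc4 have marks on both sides of 0.

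Nucleotide synthesis held opposite differences. Tk1, which salvages thymidine, was at -0.82 and -0.39 after CSA and at 0.52 and 0.01 after vehicle. Both CSA arrays were lower and the difference was -0.87 ± 0.28. A second row naming Tk1 was at 0.07 and -1.19 after CSA and at 0.67 and -1.10 after vehicle, with overlap, and differed by -0.35. Dut, which removes dUTP, was at -0.41 and -0.16 after CSA and at 0.16 and -0.003 after vehicle, lower on both CSA arrays by -0.36 ± 0.19.

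Both genes of ribonucleotide reductase, which makes deoxynucleotides, had higher means in CSA, and both groups overlapped. Rrm2, the small subunit that limits the enzyme, was at 1.01 and -0.24 after CSA and at -0.75 and -0.23 after vehicle. The difference was 0.88 ± 0.50, or 0.25 with CSA replicate 1 left out. Rrm1 was at -0.48 and 0.16 after CSA and at -1.49 and -0.16 after vehicle. Its difference of 0.66 ± 0.54 was 0.0012 without vehicle replicate 1. Tyms, which makes thymidylate, was at -1.66 and 0.10 after CSA and at -0.82 and -0.39 after vehicle. The difference, -0.18 ± 0.65 with all arrays, was 0.70 when CSA replicate 1 was left out. The class median was -0.18.

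In chromatin assembly the arrays of both groups were apart for all 4 genes, 2 higher and 2 lower in CSA, where 26.3% of all genes were apart in this way. With 4 genes the count says little about the class, and for Slbp it depends on the row used. Chaf1b, a subunit of the factor that places histones behind the fork, was at 0.08 and -0.08 after CSA and at -0.41 and -0.61 after vehicle. The difference was 0.51 ± 0.18. Its partner Chaf1a was at -0.24 on both CSA arrays and at -0.28 and -0.30 in vehicle. Those arrays were parted by little, and the difference was 0.05 ± 0.15.

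Uhrf1, which brings the maintenance DNA methyltransferase to new DNA, was at -0.58 and -0.22 after CSA and at 0.17 and -0.17 after vehicle (-0.40 ± 0.23). Slbp, which binds histone mRNA, was at -0.37 and -0.18 after CSA and at 0.14 and -0.14 after vehicle (-0.28 ± 0.19). A second row naming Slbp overlapped between the groups and differed by 0.10, and with the mean of both rows the difference was -0.09. The class median was -0.11.

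In the E2F and cyclin E class 5 of 7 genes had a lower mean in CSA, and the median was -0.15. E2f1, an activator of S phase genes, was at -0.12 and -0.17 after CSA and at 0.04 and -0.04 after vehicle. The arrays did not overlap, and the difference was -0.15 ± 0.16. E2f3, a further activator, was at -0.17 and 0.01 after CSA and at 0.04 and -0.27 after vehicle (0.03 ± 0.20). A second row naming E2f3 differed by -0.23. E2f2 and Rbl1, a pocket protein that binds E2F, differed by -0.20 ± 0.29 and -0.17 ± 0.27.

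Ccne2, a cyclin that drives S phase entry, was at 0.57 and -0.51 after CSA and at -0.46 and -0.61 after vehicle. CSA replicate 1 stood above the others, and the difference of 0.56 ± 0.41 was 0.03 without it. Ccne1 was at -0.14 and -0.50 after CSA and at 0.05 and -0.31 after vehicle (-0.19 ± 0.23). Their kinase Cdk2 was at -0.29 and -0.05 after CSA and at -0.28 and 0.05 after vehicle (-0.05 ± 0.21). The groups overlapped for all 3 genes.

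Further genes of the same pathways came from 6 lists that hold none of the 54. limma called 0 of their 99 measured genes, and 3 had an unadjusted p under 0.05, against 2.83% of all genes. Of the 99 genes 51 had a higher and 48 a lower mean in CSA (median 0.01), and 13 (13.1%) stood 1.5-fold apart without overlap, 9 higher and 4 lower. Of all genes 5.9% did, 3.91% higher and 1.99% lower. Among further genes of the E2F network, which include E2F factors and cell cycle genes, 12 of 20 were higher (median 0.27). Lin54, which carries the DNA-binding part of the complex that represses cell cycle genes in quiescence, was at 0.20 and -0.01 after CSA and at -0.66 and -0.90 after vehicle (0.87 ± 0.19). Rb1, the retinoblastoma gene, was at 0.87 and 0.31 after CSA and at -0.13 and -0.08 after vehicle (0.69 ± 0.25).

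The phosphatase gene Cdc25a and the gene of the E2F family member E2f5 were also higher on both CSA arrays, by 0.75 ± 0.26 and 0.65 ± 0.24, and the latter by 0.39 without vehicle replicate 1. Rb1 differed by 0.41 without CSA replicate 1. Fbxo5, an inhibitor of the anaphase-promoting complex, was the 1 gene of the list that was lower and 1.5-fold apart, at -1.24 and -0.077 after CSA and at 0.085 and 0.077 after vehicle (-0.74 ± 0.43). It differed by -0.16 without CSA replicate 1. Without CSA replicate 1 the list's median was 0.04. In the other lists 9 of 13 licensing and firing genes, 9 of 18 fork genes, 6 of 20 nucleotide genes, 5 of 11 chromatin genes and 10 of 17 checkpoint and repair genes were higher. Orc4, a further subunit of the origin recognition complex, differed by 0.65 ± 0.30, and by 0.28 without vehicle replicate 1. Mtbp, which acts in origin firing, differed by -0.71 ± 0.28, and by -0.42 without CSA replicate 1. The clamp loader cofactor gene Chtf8 differed by -1.19 ± 0.67, and by -0.26 without CSA replicate 1, where it was at -1.86. Dguok, a mitochondrial deoxyguanosine kinase, differed by -0.84 ± 0.47, and by -0.21 without that array. Hat1, which acetylates new histones, differed by 0.59 ± 0.41, and by 0.05 without vehicle replicate 1. The checkpoint kinase gene Chek1 was at -0.04 and -0.99 after CSA and at -1.49 and -1.28 after vehicle (0.87 ± 0.37), and differed by 0.39 without CSA replicate 1.

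Genes of the G2 and M phases stood beside these with 18 of 23 lower in CSA (median -0.27). Leaving out CSA replicate 2 gave a median of -0.11, and leaving out vehicle replicate 1 gave -0.087. The proliferation marker Mki67 was at -0.40 and -0.55 after CSA and at 0.26 and -0.26 after vehicle (-0.48 ± 0.24), with both CSA arrays lower, and differed by -0.21 without vehicle replicate 1. Top2a, which untangles replicated DNA, gave different answers by row. The row used differed by 0.17 ± 0.24, while a second row was at -1.13 and -1.30 after CSA and at -0.06 and -0.52 after vehicle and differed by -0.93. Whether the G2 and M phase genes differ in their response from the replication genes was not tested.

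Markers of other cells moved with the arrays too. The median of 8 markers of differentiated epidermis was -1.03 and -0.39 after CSA and 0.50 and -0.36 after vehicle, and all 8 had a lower mean in CSA. The median of 9 immune markers was -0.07 and -0.11 after CSA and 0.14 and -0.20 after vehicle, with 3 of 9 higher in CSA. Of 9 fibroblast and 8 endothelial markers all had a lower mean in CSA, where 41.1% of all genes had a higher one. With the arrays centred on their medians, 2 fibroblast and 1 endothelial marker were higher. Of 6 melanocyte markers 2 were higher as deposited. The fibroblast and endothelial medians were highest on vehicle replicate 1, at 0.24 and 0.19, and the median of all genes was highest there too, at 0.07. On vehicle replicate 1, 11 replication genes stood 1.5-fold below the baseline, as given above. On CSA replicate 1, 12 did, and there the fibroblast and endothelial medians were 0.03 and -0.02. Of 12 bulge markers 9 were lower in CSA, and their median was lowest on CSA replicate 1, at 0.24, and was 1.01 on the other CSA array and 0.71 and 1.03 on the vehicle arrays. The part of these cells in the differences above was not tested.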

How the data were processed

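The values are the authors' deposited log2 values (base assumed) for 28815 rows on 4 arrays, which spread around 0 and are read as distances from an unnamed baseline of each row. Per the labels' protocols, 20 ng of RNA was amplified in 1 round into biotin-labelled cDNA. The submitters' processing notes name build mm8. For array software and normalization no source used here gives a name.

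Of these rows 21780 named 1 gene, and where several rows named a gene, the one of highest mean was kept, which on centred values need not be the brightest. CSA and vehicle were compared over 19935 genes with limma 3.58.1 in R 4.3.3 (lmFit and eBayes without trend, no block, no filter), two-sided with Benjamini-Hochberg adjustment and a threshold of 0.05. The script was tested on simulated data. The exact permutation test of 2 against 2 arrays cannot go below p = 0.333 and was not used. Classes are described by counts and medians.

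The genes, lists and tests were chosen with earlier results of these data known. Array values are given for the 3 genes of each class with the largest moderated statistic, those 1.5-fold apart without overlap and a fixed set. From the other lists up to 4 each that were 1.5-fold apart are named, several of them by their difference alone. Further genes named were chosen after their values were seen. List genes without a row to themselves were left out.

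Alternatives were a mean-variance trend, no moderation, quantile normalization, centred arrays, the mean of all rows, a filter on the mean, the replicate number as a block and each array left out. Their number, 2 arrays a group, limits the precision.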

Additional observations from a re-analysis of the deposited data

How the results depend on the processing

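limma called 0 of 19935 genes and 0 of the 54 under every one of the 11 alternatives tried. The filter on the 25th percentile of the mean kept 4 of the 54 genes (Orc1, Orc3, Rrm2 and E2f2), since the others lie low relative to the baseline. With it 0 were 1.5-fold apart without overlap and 0 had an unadjusted p under 0.05. The median was 0.28 over the 4 and 0.28 over the 2 licensing genes. Rrm2 alone gave 0.88 in nucleotide synthesis, and E2f2 alone gave -0.20 in the E2F and cyclin E class. In the other classes no gene was left. On centred values such a filter can keep a gene for being high in 1 group. Rrm2 was at 1.01 on CSA replicate 1 and below 0 on the other arrays, so no direction is read from these medians. With an array left out, 9 to 15 genes were 1.5-fold apart, as 1 array against 2 overlaps less by itself, and 1 to 8 had an unadjusted p under 0.05. The count of 1 came with either array numbered replicate 1 left out, and that of 8 with CSA replicate 2 left out.

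With an array left out the median lay between -0.10 and 0.024 over all 54, -0.17 and 0.15 in licensing, -0.10 and 0.24 in firing, -0.37 and 0.05 at the fork, -0.49 and 0.25 in nucleotide synthesis, -0.18 and -0.04 in chromatin assembly and -0.17 and -0.01 in the E2F class. Differences that turned ranged from -0.26 to 0.10 for Cdc6, -0.20 to 0.12 for Cdt1, -0.32 to 0.089 for Mcm10, -0.29 to 0.035 for Cdc7, -0.20 to 0.29 for Cdc45, -0.045 to 0.64 for Gins1, -0.046 to 0.33 for Pcna, -1.06 to 0.70 for Tyms, -0.13 to 0.19 for E2f3 and -0.21 to 0.12 for Cdk2. Quantile normalization turned Cdc6 (0.067) and Cdt1 (0.064), and the mean of all rows turned E2f3 (-0.10). The cause was not tested.

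With the replicate block 0 genes were called and 3 of the 54 had an unadjusted p under 0.05. The block leaves each difference and overlap as they were, so the 4 genes 1.5-fold apart could not change. Deviations from the group means correlated between arrays of the same number with r = 0.236 over 19935 genes and r = 0.418 over the 54, and genes are not independent replicates. The labels do not say that the number pairs samples.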
